A study of Mus musculus with 9 samples.

Results

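The genes described here are 9 cytokine and receptor genes. From the IL-33 and IL-6 families come the ligands Il6, Lif and Il33 and the receptor chains Il6st, Osmr, Lifr and Il1rl1. The ligands Csf1 and Tslp were listed with them and are of neither family. The 9 genes were chosen by name, with Ensembl identifiers matched without their version to the listed symbols. All 9 were found among the 20655 genes measured. The cells were taken from white fat, inguinal and axillary depots together, of C57BL/6 mice aged 12 days, wild type in every group and with both sexes mixed, and were sorted by flow cytometry after enzymatic digestion of the tissue. The DPP4+, ICAM1+ and CD142+ populations were each profiled by messenger RNA sequencing in 3 libraries, 9 in all. The sort used DPP4 (dipeptidyl peptidase 4), the adhesion protein ICAM1 and CD142 (tissue factor, encoded by F3). Whether libraries of 1 population stem from different animals is not stated in the labels, so the p-values reflect spread among libraries that may be technical.

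Cytokines of the IL-6 family signal through receptor complexes that share the chain gp130, the product of Il6st, and the partner chain sets which ligand is bound. IL-6 uses the IL-6 receptor, leukaemia inhibitory factor uses LIFR, and oncostatin M uses OSMR or LIFR, and the complexes activate JAK kinases and STAT transcription factors. IL-33 is an alarmin held in the nucleus of stromal, endothelial and epithelial cells and released on damage, and its receptor ST2, the product of Il1rl1, is known above all from mast cells, type 2 innate lymphoid cells and regulatory T cells, signalling through MYD88 and NF-kB. In white fat, stromal cells are a known source of IL-33. CSF1 maintains macrophages, and TSLP acts on dendritic cells, lymphocytes and other cells of type 2 immunity.

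The values analysed were the mean of each gene over the 9 libraries and the log2 fold change of each pair of populations with its standard error (SE), from the authors' deposited fit. A fitted level per population was computed from them, in normalised counts (read counts divided by a size factor per library). Fitted levels have no error of their own, so every statement on a difference rests on the deposited two-sided Wald test, called at a Benjamini-Hochberg adjusted p below 0.05. The genes together held 40.4% of the summed mean of all rows, and the depth of each library is unknown. The transcripts of 2 of the 3 sort proteins were highest in the population named after them. Fitted levels of Dpp4 were 5466, 89.9 and 729 normalised counts in DPP4+, ICAM1+ and CD142+ cells, and those of F3 were 243, 310 and 1469. Icam1 had 1162, 7966 and 7058, and its difference between ICAM1+ and CD142+ cells was not called (log2 fold change 0.17 ± 0.15 SE, adjusted p = 0.631). In bulk libraries fewer cells of a type and less RNA per cell cannot be told apart.

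Promoter sequences are shown for the genes that the results turn on and that were higher in the same populations: Il6 and Lif, the gp130 ligands that were higher in CD142+ than in DPP4+ cells, and Osmr and Lifr, neighbouring receptor genes that were both higher outside DPP4+ cells. Each is the 250 bases before a transcription start, 5′ to 3′ in the direction of the gene, from RefSeq on GRCm38.p6, the assembly also called mm10. Capitals mark matches to the motifs searched. The Il6 window lies at chr5:30012864-30013113 on the plus strand, Lif at chr11:4257318-4257567 on the plus strand, Osmr at chr15:6874314-6874563 on the minus strand and Lifr at chr15:7129322-7129571 on the plus strand. The RefSeq starts used for Lif, Osmr and Lifr lie inside the gene spans of GENCODE M21. A further RefSeq window of Lifr was searched but is not printed.
Il6: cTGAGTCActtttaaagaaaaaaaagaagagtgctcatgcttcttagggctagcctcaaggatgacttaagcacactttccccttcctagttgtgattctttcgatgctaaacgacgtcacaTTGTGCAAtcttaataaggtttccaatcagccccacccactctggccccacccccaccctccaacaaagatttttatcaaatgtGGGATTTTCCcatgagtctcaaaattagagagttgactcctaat
Lif: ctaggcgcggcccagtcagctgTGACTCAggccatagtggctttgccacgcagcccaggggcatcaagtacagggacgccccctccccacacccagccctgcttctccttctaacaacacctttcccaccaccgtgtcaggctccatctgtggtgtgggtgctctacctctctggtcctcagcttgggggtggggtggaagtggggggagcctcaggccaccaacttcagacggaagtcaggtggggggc
Osmr: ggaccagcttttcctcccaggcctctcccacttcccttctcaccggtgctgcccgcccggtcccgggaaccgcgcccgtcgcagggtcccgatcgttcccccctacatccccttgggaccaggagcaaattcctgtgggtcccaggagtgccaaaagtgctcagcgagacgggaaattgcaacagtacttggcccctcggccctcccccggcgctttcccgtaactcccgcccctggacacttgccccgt
Lifr: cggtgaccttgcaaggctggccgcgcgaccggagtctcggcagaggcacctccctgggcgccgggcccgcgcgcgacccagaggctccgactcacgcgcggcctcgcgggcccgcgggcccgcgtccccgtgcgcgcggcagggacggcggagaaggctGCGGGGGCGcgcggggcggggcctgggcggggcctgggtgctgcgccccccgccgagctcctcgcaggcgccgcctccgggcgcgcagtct

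The motifs were searched on both strands in 300 bases, the 250 before and the 50 after each start, and their letters do not overlap one another in the 4 sequences shown. Of all 32851 promoter windows, 7.81% held the AP-1 motif TGANTCA, 10.8% the C/EBP motif TTGCNNAA, 1.20% the NF-kB motif (GGGA, any base, TT, any base, CC) and 5.55% the EGR1 motif GCGNGGGCG. The Il6 window held AP-1 at -249 to -243, C/EBP at -128 to -121 and NF-kB at -44 to -35, counted from the start. Lif held AP-1 at -228 to -222 and Lifr held EGR1 at -91 to -83. Osmr held AP-1 at 4 to 10 after the start, outside the stretch printed. Among the genes not printed, Csf1 held NF-kB at -154 to -145. Il1rl1 held C/EBP at -34 to -27 and Il33 at -85 to -78, so these motifs were not confined to the genes shown. The STAT motif TTCNNNGAA, in 8.30% of all windows, and the CRE motif TGACGTCA, in 1.79%, had matches in 0 of the 11 windows of 8 of the genes, which says only that these letters are not in these windows. TATAAA, in 13.6% of all windows, was found in 2 of the 11, both of Il33. Base composition differed widely, with 42.8% G and C bases in the 250 bases of Il6, 63.6% in Lif, 66% in Osmr and 82.4% in Lifr, against a median of 52.4% over all windows. A match describes letters and is no evidence of binding.

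Most of these genes were expressed well above the middle of the range, and the ligand Il6 was the most abundant of them. Per kilobase of exon, the mean over libraries was 1497 normalised counts for Il6, higher than 99.0% of all genes, 570 for Csf1 (97.5%) and 482 for Il6st (97.0%). A middle group held Osmr with 115 (87.5%), Lif with 98.6 (85.1%), Il1rl1 with 91.7 (84.1%), Il33 with 88.5 (83.7%) and Lifr with 51.5 (74.5%), all in normalised counts per kilobase with the share of genes below. Tslp was the lowest, with 21.4 normalised counts per kilobase (56.8%) and a mean of 28.4 normalised counts over its whole length. None of the exon bases of the 9 genes are shared with another annotated gene on either strand (0%).

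**Figure D1:**
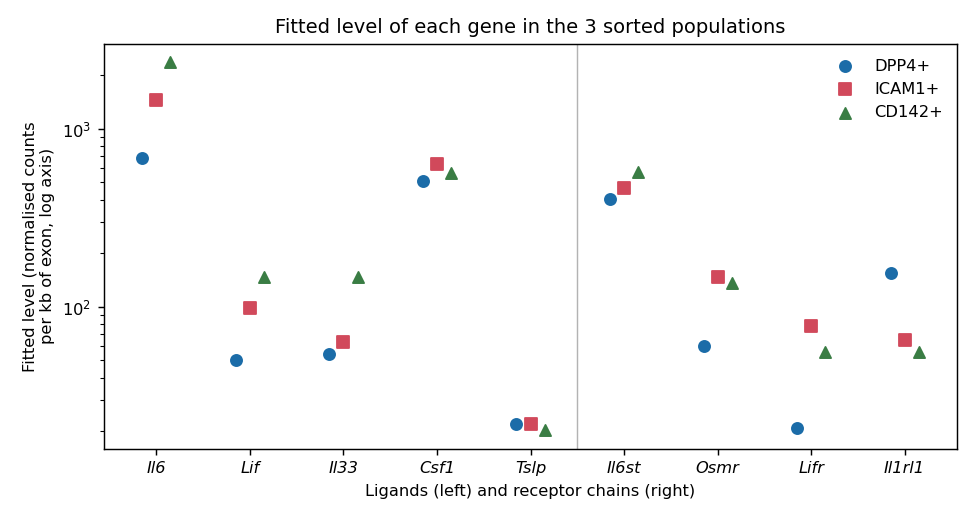
Fitted level of each of the 9 genes in DPP4+ (circles), ICAM1+ (squares) and CD142+ cells (triangles), in normalised counts per kilobase of exon on a log axis, with ligands on the left and receptor chains on the right. The points are fitted values with no error of their own. Il6 runs from 684 in DPP4+ to 2361 in CD142+ cells, while Il1rl1 runs the other way, from 154 to 55.8.

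Set against DPP4+ cells, CD142+ cells had more transcripts of 6 of the 9 genes and fewer of 1, where 10.1% of the 17450 genes tested were higher and 8.91% lower. The higher genes were the ligands Il6, Lif and Il33 and the receptor chains Il6st, Osmr and Lifr, and the lower gene was Il1rl1. Csf1 and Tslp were not called. The median log2 fold change of the 9 genes was 1.18, beside -0.01 over all genes tested. ICAM1+ cells had more transcripts of 3 genes than DPP4+ cells, namely Il6, Osmr and Lifr, and fewer of Il1rl1, where 12.4% of 17851 genes were higher and 12.0% lower. The median of the 9 was 0.32, beside 0.02 over all genes tested. Between ICAM1+ and CD142+ cells 0 of the 9 genes were higher in ICAM1+ and 3 were lower, Il33, Il6 and Il6st, where 3.77% of 15848 genes were higher and 5.28% lower. At an unadjusted p below 0.05 by the deposited Wald test, 6 genes were higher and 1 lower in ICAM1+ than in DPP4+ cells, adding Lif, Il6st and Csf1 to the higher ones. At that level the counts in CD142+ against DPP4+ cells stayed at 6 and 1, and 1 gene, Lifr, was higher and 3 were lower in ICAM1+ against CD142+ cells. No other count model was run. The median of the 9 in this comparison was 0.11, beside -0.00 over all genes tested. The comparisons share populations and are not independent of one another. The shares over all genes given here are also those to read beside the counts for each gene list below.

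**Figure D2:**
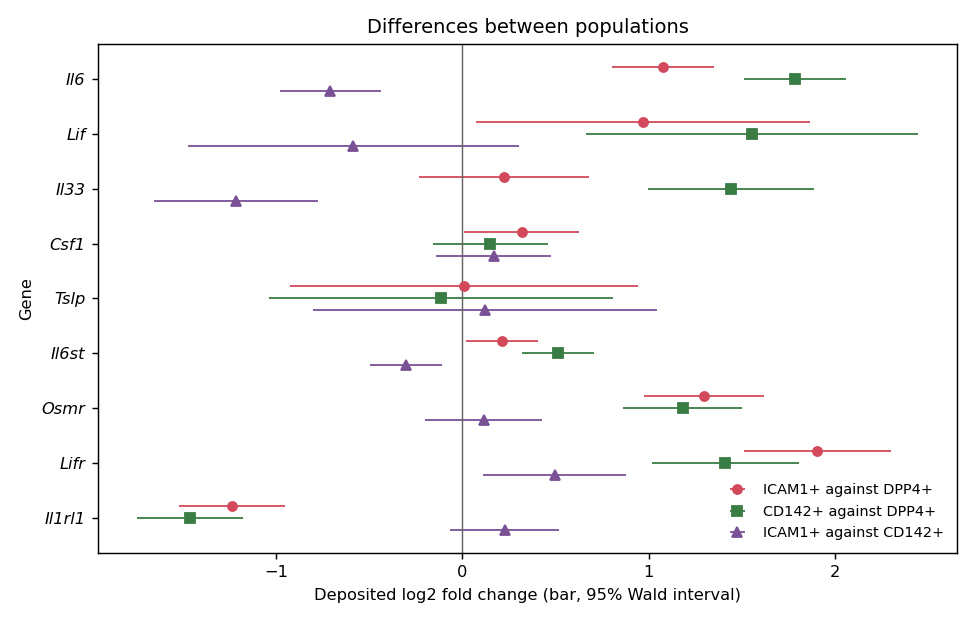
Deposited log2 fold change (x axis) of each of the 9 genes in the 3 comparisons of populations, with bars for the 95% Wald interval. Il6 and Lif lie to the right of 0 against DPP4+ cells in both comparisons, Il1rl1 lies to the left in both (-1.24 and -1.46), and all 3 intervals of Tslp span 0.

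Il6 (ENSMUSG00000025746.11, chromosome 5, 30013114 to 30019981, plus strand, mm10) encodes interleukin 6, the founding ligand of its family. Its fitted level was 1662 normalised counts in DPP4+, 3506 in ICAM1+ and 5733 in CD142+ cells. Each population differed from each other one. Against DPP4+ cells, the log2 fold change was 1.08 ± 0.14 (SE, adjusted p = 5.10e-13) in ICAM1+ and 1.79 ± 0.14 (adjusted p = 3.05e-35) in CD142+ cells, which is 2.11-fold and 3.45-fold. ICAM1+ cells had less Il6 than CD142+ cells, with a log2 fold change of -0.71 ± 0.14 (adjusted p = 1.39e-05). Of the 7952 genes whose mean reached 100 normalised counts, 96.5% had a smaller absolute change than Il6 between CD142+ and DPP4+ cells.

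Lif (ENSMUSG00000034394.14, chromosome 11, 4257557 to 4272514, plus strand) encodes leukaemia inhibitory factor, which acts through LIFR and gp130. The fitted levels were in the same order as for Il6, 218 normalised counts in DPP4+, 427 in ICAM1+ and 641 in CD142+ cells. Only the outermost pair was called. The log2 fold change in CD142+ against DPP4+ cells was 1.55 ± 0.46 (SE, adjusted p = 0.00506), or 2.94-fold with a 95% interval of 1.58 to 5.45. In ICAM1+ against DPP4+ cells it was 0.97 ± 0.46 (95% interval 0.07 to 1.86, adjusted p = 0.112), and in ICAM1+ against CD142+ cells -0.59 ± 0.45 (-1.47 to 0.30, adjusted p = 0.570). Lif was measured with little precision for its abundance. Its SE of 0.46 was larger than that of 99.8% of the 2337 genes whose mean was within 1.5-fold of its own, and their median SE was 0.15. Counting error alone would give an SE of 0.07 at these fitted levels. Values per library were not used here, so which libraries of Lif were high or low is not known.

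**Figure D3:**
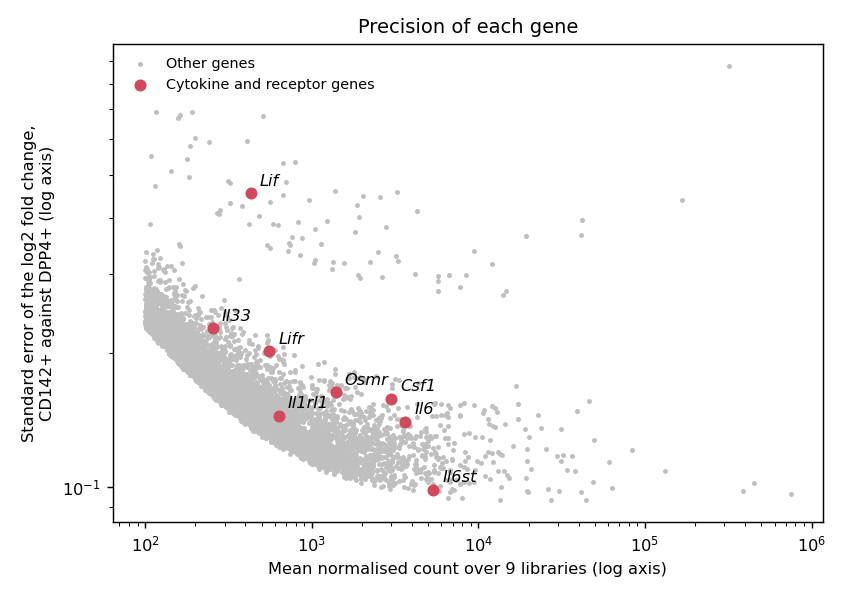
Standard error of the log2 fold change of CD142+ against DPP4+ cells (y axis, log) by the mean normalised count over 9 libraries (x axis, log), 1 point per gene with a mean of at least 100, with the cytokine and receptor genes in red. Lif lies above nearly all genes of like mean, whereas Il6st lies at the lower edge, and Tslp, with a mean of 28.4, is not shown.

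The other genes were spread over the range of precision. Lifr and Il33 had a larger SE than 98.1% and 97.1% of genes with a like mean, Csf1 than 94.1%, Osmr than 93.7% and Il6 than 85.9%. Il6st was among the most tightly measured, with a larger SE than only 3.90% of such genes. Tslp (66.1%) and Il1rl1 (61.1%) were near the middle.

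Il33 (ENSMUSG00000024810.16, chromosome 19, 29925114 to 29960718, plus strand) was highest in CD142+ cells. The fitted levels were 157 normalised counts in DPP4+, 183 in ICAM1+ and 426 in CD142+ cells. CD142+ cells had 2.72-fold the level of DPP4+ cells, a log2 fold change of 1.44 ± 0.23 (SE, adjusted p = 4.56e-09). ICAM1+ cells were lower than CD142+ cells by a similar amount, with -1.22 ± 0.23 (adjusted p = 3.29e-06), a change that exceeded that of 98.2% of the 7952 genes. ICAM1+ and DPP4+ cells were not told apart, with a log2 fold change of 0.23 ± 0.23 and a 95% interval of -0.23 to 0.68 (adjusted p = 0.557). The population with the highest fitted level was the same as for Il6 and Lif.

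Csf1 (ENSMUSG00000014599.10, chromosome 3, 107741048 to 107760469, minus strand), the growth factor of macrophages, was abundant, and none of its 3 comparisons was called. Fitted levels were 2690, 3351 and 2982 normalised counts in DPP4+, ICAM1+ and CD142+ cells. The log2 fold changes were 0.32 ± 0.16 (95% interval 0.01 to 0.63, adjusted p = 0.136) in ICAM1+ against DPP4+ cells, 0.15 ± 0.16 (-0.16 to 0.46, adjusted p = 0.631) in CD142+ against DPP4+ cells and 0.17 ± 0.16 (-0.14 to 0.48, adjusted p = 0.668) in ICAM1+ against CD142+ cells. Differences above about 0.63 on the log2 scale lie outside these intervals. Tslp (ENSMUSG00000024379.3), thymic stromal lymphopoietin, was scarce, at 29.1, 29.3 and 26.9 normalised counts in the same order. Its log2 fold changes were 0.01 ± 0.48, -0.11 ± 0.47 and 0.12 ± 0.47 in the order of comparisons above (adjusted p = 0.995, 0.930 and 0.947). The intervals of Tslp reach from -1.04 to 1.05, so differences of up to about 2.06-fold lie within them at this abundance.

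Among the receptor chains, Il6st (ENSMUSG00000021756.12, chromosome 13, 112464070 to 112510086, plus strand) encodes the shared chain gp130. It was high in all 3 populations and differed by at most 1.43-fold. Its fitted levels were 4474, 5178 and 6384 normalised counts in DPP4+, ICAM1+ and CD142+ cells. CD142+ cells were 1.43-fold above DPP4+ cells, with a log2 fold change of 0.51 ± 0.10 (SE, adjusted p = 3.06e-06). ICAM1+ cells were lower than CD142+ cells by less, with -0.30 ± 0.10 (adjusted p = 0.0285), a call that was lost with values centred on the median gene (-0.28). Against DPP4+ cells, ICAM1+ cells had 0.21 ± 0.10 (95% interval 0.02 to 0.40, adjusted p = 0.109), which passed when re-centred (0.28). Of the 7952 genes, 76.3% had a smaller absolute change than Il6st between CD142+ and DPP4+ cells.

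The partner chains Osmr and Lifr differed more, and both were lowest in DPP4+ cells. Osmr (ENSMUSG00000022146.12, chromosome 15, 6813577 to 6874969, minus strand), the oncostatin M receptor, had fitted levels of 729 normalised counts in DPP4+, 1790 in ICAM1+ and 1654 in CD142+ cells. Against DPP4+ cells its log2 fold change was 1.30 ± 0.16 (SE, adjusted p = 5.57e-14) in ICAM1+ and 1.18 ± 0.16 (adjusted p = 1.03e-11) in CD142+ cells, 2.46-fold and 2.27-fold. Between ICAM1+ and CD142+ cells it was 0.11 ± 0.16 (95% interval -0.20 to 0.43, adjusted p = 0.814). For Osmr, DPP4+ cells stood below the other two populations, which were not told apart. Lifr (ENSMUSG00000054263.11, chromosome 15, 7090614 to 7197489, plus strand), the receptor of leukaemia inhibitory factor, had 225, 842 and 597 normalised counts in DPP4+, ICAM1+ and CD142+ cells. The log2 fold change was 1.90 ± 0.20 (adjusted p = 1.32e-19) in ICAM1+ and 1.41 ± 0.20 (adjusted p = 7.05e-11) in CD142+ against DPP4+ cells, which is 3.74-fold and 2.66-fold. Of these 7952 genes, 96.1% changed less than Lifr between ICAM1+ and DPP4+ cells. In ICAM1+ against CD142+ cells the value was 0.49 ± 0.20 (95% interval 0.11 to 0.88, adjusted p = 0.0991). The 2 genes are adjacent protein-coding genes, 215.6 kilobases apart on opposite strands.

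Per kilobase of exon, gp130 transcripts outnumbered those of the partner chains in each population, by fitted level. The ratio of Il6st to Osmr was 6.70 in DPP4+, 3.16 in ICAM1+ and 4.21 in CD142+ cells, and that of Il6st to Lifr was 19.3, 5.97 and 10.4. Il6ra, the IL-6 binding chain, moved the other way. The ratio of Il6st to Il6ra was 4.28, 7.94 and 14.9 in the same order. Between the ligands, the ratio of Il6 to Lif was 13.6, 14.7 and 16.0. These ratios are of fitted levels and were not tested.

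Il1rl1 (ENSMUSG00000026069.15, chromosome 1, 40429570 to 40465415, plus strand), which encodes the IL-33 receptor ST2, was the only one of the 9 genes that was highest in DPP4+ cells by a called difference. Its fitted levels were 1061 normalised counts in DPP4+, 450 in ICAM1+ and 385 in CD142+ cells. RefSeq promoter windows of Il1rl1 begin at 40429320 and at 40439379. The values are per gene, so transcripts from separate starts, and the forms of ST2 they encode, were not told apart. The log2 fold change was -1.24 ± 0.15 (SE, adjusted p = 5.64e-16) in ICAM1+ and -1.46 ± 0.14 (adjusted p = 2.35e-22) in CD142+ against DPP4+ cells, so DPP4+ cells had 2.36 and 2.76 times the level. ICAM1+ and CD142+ cells differed by 0.23 ± 0.15 (95% interval -0.07 to 0.52, adjusted p = 0.471), which was not called. The fitted levels of Il33 and Il1rl1 ran in opposite order over the populations, although Il33 was not told apart between DPP4+ and ICAM1+ cells, nor Il1rl1 between ICAM1+ and CD142+ cells. The ratio of Il1rl1 to Il33 per kilobase of exon was 2.83 in DPP4+, 1.03 in ICAM1+ and 0.378 in CD142+ cells, a description with no test.

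Because ST2 is known from mast cells and lymphoid cells, their markers were read beside Il1rl1. Mast cell markers, 7 of 9 with a row, summed to 113 normalised counts in DPP4+, 161 in ICAM1+ and 82.5 in CD142+ cells, and the carboxypeptidase Cpa3 had a mean of 5.23. Fcer1a and Ms4a2, chains of the IgE receptor, had no row. None of the mast cell markers measured was lower in ICAM1+ than in DPP4+ cells (1 higher, 0 lower), while 1 was lower in CD142+ than in DPP4+ cells and 2 were higher in ICAM1+ than in CD142+ cells. Markers of lymphocytes and type 2 innate lymphoid cells, 11 of 12 with a row, summed to 5697, 2922 and 2927 normalised counts, most of it from Thy1, a surface protein that fibroblasts also carry, with 4809, 2075 and 1948. Ptprc, the CD45 antigen of all leucocytes, was at 18.9, 28.1 and 13.9 and Gata3 at 10.4, 6.60 and 5.26. The T cell marker Cd3e was at 36.9, 70.3 and 78.1, and Foxp3, of regulatory T cells, at 22.7, 29.1 and 34.2. Of this list, 0 were higher and 1, Thy1, lower in ICAM1+ than in DPP4+ cells (median log2 fold change 0.36). In CD142+ against DPP4+ cells 1, Cd3e, was higher and 1, Thy1, lower (0.06). Between ICAM1+ and CD142+ cells 0 were called (-0.15). Fitted levels are above 0 by the way they are computed, so they do not show that a marker was detected in each population. The part of mast and lymphoid cells in the level of Il1rl1 was not tested.

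Il1rl1 lies in a cluster of IL-1 receptor genes on chromosome 1, and none of its neighbours with an adjusted p was called lower outside DPP4+ cells, as Il1rl1 was. Il1r1, the signalling receptor of IL-1, was higher in ICAM1+ than in DPP4+ cells (log2 fold change 2.33 ± 0.15 SE, adjusted p = 6.67e-51) and in CD142+ than in DPP4+ cells (1.56 ± 0.15, adjusted p = 5.88e-23). It was also higher in ICAM1+ than in CD142+ cells (0.77 ± 0.15, adjusted p = 1.15e-05). Il1rl2, the IL-36 receptor gene 62.0 kilobases before Il1rl1, had a mean of 1171 normalised counts and values of 0.13 ± 0.13, -0.04 ± 0.13 and 0.17 ± 0.13, none called. Il1r2, the decoy receptor at the start of the cluster, had a mean of 19.7 and was higher in ICAM1+ and in CD142+ than in DPP4+ cells, by 2.74 ± 0.65 and 2.69 ± 0.65. Il18r1, which starts 0.137 kilobases after Il1rl1 ends, had a mean of only 1.68 normalised counts and no adjusted p. Its log2 fold changes, -2.35 ± 1.75, -2.61 ± 1.76 and 0.26 ± 1.94, had the signs of those of Il1rl1 with an SE too large to place them. Il18rap had no row. Per kilobase of exon, Il1rl1 and Il1r1 were about level in DPP4+ cells (ratio 1.05), and the ratio was 0.0889 in ICAM1+ and 0.129 in CD142+ cells. The cluster's genes other than Il1rl1 and Il1r1 were named for their place, Il1r2 and Il1rl2 after their values were seen.

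**Figure D4:**
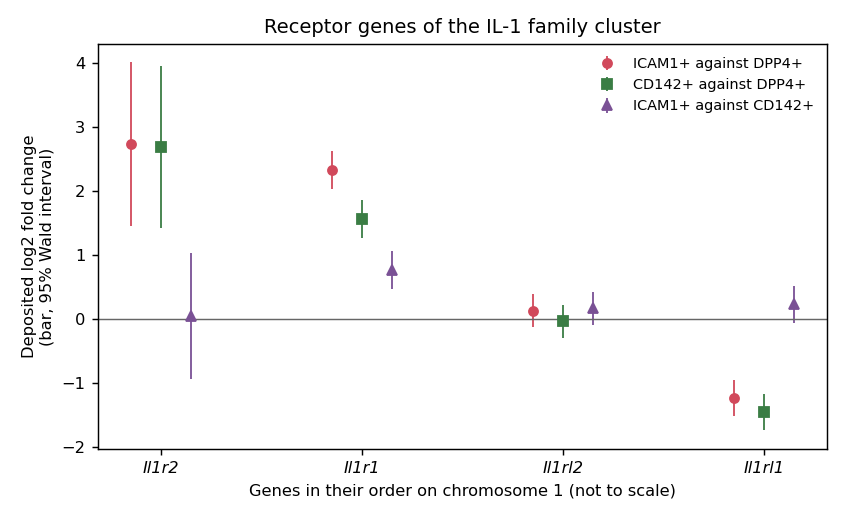
Deposited log2 fold changes (y axis) of 4 IL-1 receptor genes in their order on chromosome 1 (x axis, not to scale), for the 3 comparisons, with bars for the 95% Wald interval. Il1r2 and Il1r1 lie above 0 against DPP4+ cells, Il1rl2 at 0 and Il1rl1 below it at -1.24 and -1.46.

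The other genes of the IL-1 family changed in both directions. Of 12 listed ligands and receptors, 10 had a row, of which 2 were higher and 1 lower in ICAM1+ than in DPP4+ cells (median log2 fold change 0.20), 2 higher and 1 lower in CD142+ than in DPP4+ cells (-0.26) and 1 higher and 0 lower in ICAM1+ against CD142+ cells (0.27). The lower member was Il18, named after its values were seen, at 129, 6.98 and 7.49 normalised counts in DPP4+, ICAM1+ and CD142+ cells. Il1rap, the accessory chain that ST2 and the IL-1 receptor share, had 130, 149 and 141 normalised counts and log2 fold changes of 0.19 ± 0.22, 0.12 ± 0.22 and 0.08 ± 0.22, none called. Of the 13 adaptors and kinases of this receptor family, 3 were higher and 4 lower in ICAM1+ than in DPP4+ cells (median -0.10). Over all genes tested, 12.4% were higher and 12.0% lower. In CD142+ against DPP4+ cells 0 were higher and 1 lower (-0.04), beside 10.1% and 8.91% of all genes. Against CD142+ cells, 0 were called in either direction in ICAM1+ cells (-0.10), beside 3.77% and 5.28%. Irak3, an inhibitory kinase-like protein of the pathway, was lower in both populations, by -0.99 ± 0.13 and -0.88 ± 0.13 against DPP4+ cells. Myd88, the adaptor, was higher in ICAM1+ cells (0.57 ± 0.13), and Ikbkg, the regulatory subunit of the IkB kinase, lower (-0.68 ± 0.21). Tollip, an inhibitory adaptor, had -0.29 ± 0.14 in CD142+ against DPP4+ cells (adjusted p = 0.156).

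Of 16 NF-kB response genes, 9 were higher and 0 lower in ICAM1+ than in DPP4+ cells (median log2 fold change 0.74), where 12.4% of all genes tested were higher. In CD142+ against DPP4+ cells 8 were higher and 0 lower (0.61), where 10.1% of all genes were higher. Nfkbia, Nfkbiz, Relb, Cxcl2, Cxcl10 and Ccl2 were called in neither comparison. Between ICAM1+ and CD142+ cells 1 was higher and 0 lower (0.14). Vcam1, a vascular adhesion molecule, had 2.13 ± 0.12 and 1.99 ± 0.12 against DPP4+ cells, and Nfkbie, an inhibitor of NF-kB, 1.25 ± 0.21 and 1.30 ± 0.21. Icam1 is in this list too, and its direction is tied to the sort. The chemokine Cxcl1 was at 6581, 14357 and 13519.5 normalised counts in DPP4+, ICAM1+ and CD142+ cells, while Ccl2 was near level at 5780, 5999 and 5433, with no comparison called.

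In the rest of the gp130 system, receptor chains went in both directions. Il6ra was at 813, 508 and 334 normalised counts in DPP4+, ICAM1+ and CD142+ cells, and each pair differed. Its log2 fold change was -0.68 ± 0.15 (SE, adjusted p = 4.73e-05) in ICAM1+ and -1.28 ± 0.15 in CD142+ against DPP4+ cells, and 0.60 ± 0.15 in ICAM1+ against CD142+ cells, the reverse of the order of Il6. Il11ra1, the IL-11 binding chain, followed the order of Il6, at 502, 1033 and 1455 normalised counts, with 1.04 ± 0.13, 1.54 ± 0.13 and -0.49 ± 0.13. Of the 6 chains listed, these were the ones called, 1 higher and 1 lower in each comparison (median log2 fold changes 0.60, 0.51 and 0.24). Of the 8 other gp130 cytokines, 6 had a row and Osm, the ligand of OSMR, and Cntf had none. Only Il11 was called, with 1.37 ± 0.36 in ICAM1+ and 1.77 ± 0.36 in CD142+ against DPP4+ cells and a mean of 71.6 normalised counts. The list had 1 higher and 0 lower in both comparisons against DPP4+ cells (medians 1.44 and 1.21) and 0 called between ICAM1+ and CD142+ cells (0.26), and Clcf1, a further ligand of the family, had a mean of 8.43.

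Several JAK and STAT signalling genes were higher outside DPP4+ cells, and the list is not confined to the gp130 signal. Of 12 such genes, 7 were higher and 1 lower in ICAM1+ than in DPP4+ cells (median log2 fold change 0.59). Over all genes tested, 12.4% were higher and 12.0% lower. In CD142+ against DPP4+ cells 5 were higher and 0 lower (0.25), beside 10.1% and 8.91% of all genes. Against CD142+ cells, 2 were higher and 0 lower in ICAM1+ cells (0.23), beside 3.77% and 5.28%. Stat3, the main transcription factor below gp130, was at 2486, 4068 and 3379 normalised counts, with 0.71 ± 0.11 in ICAM1+ and 0.44 ± 0.11 in CD142+ against DPP4+ cells. Stat5a had 1.10 ± 0.15 and 0.56 ± 0.15, and was also higher in ICAM1+ than in CD142+ cells (0.54 ± 0.15). The adaptors Gab1 and Shc1 were higher in both as well, Gab1 by 0.65 ± 0.15 and 0.54 ± 0.15. Jak1, the kinase most tied to gp130, had 3142, 3173 and 2769 normalised counts and was not called in any comparison.

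Of 9 feedback inhibitors of STAT signalling, 2 were higher and 1 lower in ICAM1+ than in DPP4+ cells (median 0.09). Over all genes tested, 12.4% were higher and 12.0% lower. In CD142+ against DPP4+ cells 2 were higher and 0 lower (0.07), beside 10.1% and 8.91% of all genes. Against CD142+ cells, 0 were called in either direction in ICAM1+ cells (0.01), beside 3.77% and 5.28%. Socs3, which STAT3 induces and which binds gp130 to stop its signal, was abundant at 6207, 8689 and 9763 normalised counts and higher by 0.49 ± 0.11 in ICAM1+ and 0.65 ± 0.11 in CD142+ cells. The phosphatase gene Ptpn1 was higher by 0.75 ± 0.14 and 0.62 ± 0.14, and Pias3, an inhibitor of STAT3, was lower in ICAM1+ cells (-0.55 ± 0.19). Of 16 genes that respond to STAT3, 4 were higher and 0 lower in ICAM1+ than in DPP4+ cells (median 0.23). In CD142+ against DPP4+ cells 8 were higher and 1 lower (0.45), and in ICAM1+ against CD142+ cells 3 were higher and 5 lower (-0.17). The shares of all genes to set beside these counts are those given for the inhibitors. The kinase gene Pim1 had 0.71 ± 0.16 and 0.99 ± 0.16 against DPP4+ cells. Serpina3n, an acute phase protease inhibitor, was at 162, 221 and 373 normalised counts, and Timp1, a metalloprotease inhibitor, at 484, 440 and 712. Both were higher in CD142+ than in DPP4+ cells (1.21 ± 0.19 and 0.56 ± 0.14) and lower in ICAM1+ cells than there (-0.75 ± 0.19 and -0.69 ± 0.14). Several of these genes respond to other signals too.

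**Figure D5:**
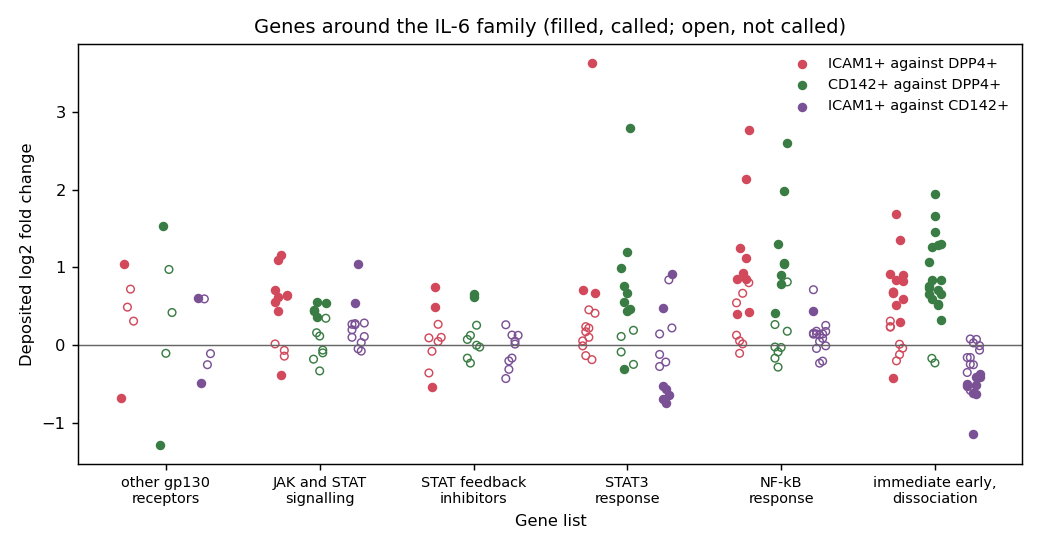
Deposited log2 fold changes (y axis) of genes in 6 gene lists, by list (x axis), for genes with a mean of at least 10. Each gene has 1 point for each of the 3 comparisons, filled where the adjusted p is below 0.05. Genes of lower mean, among them Jund, Lcn2 and Hp, are not drawn. Of the 21 immediate early and dissociation genes listed, 18 have a filled point above 0 for CD142+ against DPP4+. In the NF-kB response list 9 and 8 of 16 do, for ICAM1+ and CD142+ against DPP4+.

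Immediate early and dissociation genes, which digestion of a tissue can induce, were higher outside DPP4+ cells in many cases. Of 21 such genes, 11 were higher and 1 lower in ICAM1+ than in DPP4+ cells (median log2 fold change 0.52). Over all genes tested, 12.4% were higher and 12.0% lower. In CD142+ against DPP4+ cells 18 were higher and 0 lower (0.74), beside 10.1% and 8.91% of all genes. Against CD142+ cells, 0 were higher and 9 lower in ICAM1+ cells (-0.35), beside 3.77% and 5.28%. The summed fitted level of the 21 genes was 111412 normalised counts in DPP4+, 163408 in ICAM1+ and 206282 in CD142+ cells. This is the order of the fitted levels of Il6, Lif, Il6st and Il33. Egr2, a zinc finger factor, had 1.69 ± 0.15 in ICAM1+ and 1.95 ± 0.15 in CD142+ against DPP4+ cells. Nr4a1, a nuclear receptor induced within minutes of stimulation, was at 3832, 5501 and 12130 normalised counts, and the heat shock gene Hspa1b at 9083, 16276 and 25038. Zfp36, whose product destabilises cytokine transcripts, was higher as well, by 0.91 ± 0.11 and 1.08 ± 0.11. The part of these genes in the results for Il6, Lif, Il6st and Il33 was not tested.

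Among genes around Tslp and type 2 cytokines, 11 of 12 had a row, of which 1 was higher and 1 lower in ICAM1+ than in DPP4+ cells (median log2 fold change -0.13), 0 higher and 1 lower in CD142+ than in DPP4+ cells (-0.20), and 1 higher and 1 lower in ICAM1+ against CD142+ cells (0.13). Il13ra1, a chain of the IL-4 and IL-13 receptors, was at 1434 normalised counts in DPP4+, 114 in ICAM1+ and 342 in CD142+ cells. Its log2 fold changes were -3.65 ± 0.16, -2.07 ± 0.14 and -1.58 ± 0.16, so it was lowest in ICAM1+ cells. Il4ra, which pairs with it, was at 2837, 4500 and 2386, higher in ICAM1+ than in DPP4+ cells (0.67 ± 0.14) and than in CD142+ cells (0.92 ± 0.14). Crlf2, the TSLP binding chain, had a mean of 109 normalised counts with no comparison called, and its partner Il7r a mean of 2.19.

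Around Csf1, 8 colony stimulating factor genes gave 3 higher and 3 lower in ICAM1+ than in DPP4+ cells (median log2 fold change 0.62). Over all genes tested, 12.4% were higher and 12.0% lower. In CD142+ against DPP4+ cells 2 were higher and 3 lower (-0.12), beside 10.1% and 8.91% of all genes. Against CD142+ cells, 4 were higher and 0 lower in ICAM1+ cells (0.58), beside 3.77% and 5.28%. Kitl, the ligand of KIT, was at 696, 1544 and 1089 normalised counts in DPP4+, ICAM1+ and CD142+ cells and differed in each comparison (1.15 ± 0.17, 0.65 ± 0.17 and 0.50 ± 0.17). Csf1r, the receptor of CSF1 and a marker of macrophages, had a mean of 104 normalised counts and was higher in ICAM1+ than in CD142+ cells (0.83 ± 0.28, adjusted p = 0.0390). Il34, its other ligand, named after its values were seen, was lower than in DPP4+ cells in both populations (-0.96 ± 0.31 and -1.89 ± 0.32). Macrophage and dendritic cell markers, 9 of 10 with a row, summed to 234, 391 and 252 normalised counts, with 1 called, Csf1r.

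Markers of the remaining cell types a sort of fat stroma could hold also differed between populations, and their part in the results was not tested. Preadipocyte markers (8 of 8 with a row) were abundant and summed to 1400322, 920084 and 1442436 normalised counts in DPP4+, ICAM1+ and CD142+ cells, most of it from the collagens Col1a1 and Col3a1. In ICAM1+ against DPP4+ cells 1 of them was higher and 6 lower (median log2 fold change -0.63), and in CD142+ against DPP4+ cells 1 was higher and 2 lower (-0.04). The higher marker was Pdgfra, a growth factor receptor, at 2849, 3664 and 4432 normalised counts. Cd34, a surface protein of stromal progenitors, was lower in both, at 13820, 3154 and 5095. Mural markers (10 of 10 with a row) summed to 3020, 12438 and 6805 normalised counts, Schwann cell markers (7 of 7) to 1030, 2587 and 1036, adipocyte markers (8 of 8) to 5155, 20178 and 11999 and epithelial markers (6 of 7) to 25.1, 123 and 56.3. In ICAM1+ against DPP4+ cells, 8 mural markers were higher and 1 lower. The counts were 6 and 0 for Schwann cell, 6 and 0 for adipocyte and 4 and 0 for epithelial markers. Over all genes tested, 12.4% were higher and 12.0% lower. The mural, Schwann cell, adipocyte and epithelial sums had the order of the fitted levels of Lifr, Osmr and Csf1, highest in ICAM1+ and lowest in DPP4+ cells. In CD142+ against DPP4+ cells, 5 mural, 2 Schwann cell, 4 adipocyte and 0 epithelial markers were higher. None of these lists' markers was lower there (0), where 10.1% of all genes tested were higher and 8.91% lower. Endothelial markers (10 of 10) summed to 5663, 4992 and 3410, with Tek, a receptor of angiopoietins, alone at 2733, 539 and 507. Of the endothelial markers 6 were higher and 1, Tek, lower in ICAM1+ than in DPP4+ cells (median log2 fold change 0.53), and 0 were higher and 1, again Tek, lower in CD142+ than in DPP4+ cells (-0.10). Mesothelial markers (5 of 6) summed to 139, 40.1 and 72.1.

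The genes most like each member in pattern were found by the distance between pairs of log2 fold changes against DPP4+ cells, over 3 populations and among 7569 protein-coding genes with a mean of at least 100. With 2 values per gene this is a description only. Nearest to Il6 were Dock9 (distance 0.09), the endothelial selectin Sele (0.10) and the nuclear receptor gene Nr4a3 (0.11). Il33 was nearest to Ltbp4, Col16a1 and Rgs2 (0.07, 0.10 and 0.10), the first a binding protein of latent TGFb and the second a collagen. For Lif they were Cpe, Depdc5 and Ptprk, for Il1rl1 Umps, Robo1 and Tmtc2, and for Lifr Fam198b, Adgre5 and Arhgap24. Osmr lay nearest to Serpinb9, Lag3 and Prc1. Il6st and Csf1 had 345 and 1142 genes within a distance of 0.25, led by Ggcx, App and Cab39l and by Sertad1, Dip2b and H3f3b. The others had between 14 genes (Il33) and 44 (Osmr) within that distance.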

How the data were processed

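Messenger RNA of sorted DPP4+, ICAM1+ and CD142+ cells was selected with oligo(dT) and sequenced from both ends, 3 libraries per population, grouped by the population in their labels. For the authors' processing, the notes of the submitters give STAR 2.5.2a, DESeq2 without a version, R 3.5.1 and the build mm10. Which annotation release and strand setting they used is not given in the sources used here. As deposited, the data are 3 pairwise result tables. Values per library were not used here, so the depth of each library is unknown and no model was refitted. Calls rest on the authors' p-values, and the alternatives reused their fold changes, standard errors and p-values.

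The mean is a signal deposited by the authors, counts over DESeq2 size factors averaged over libraries. The authors deposited log2 fold changes with standard errors from a DESeq2 fit. A score, the Wald statistic, was also deposited by the authors. The p-values and adjusted p-values (Benjamini-Hochberg, empty where filtered) were deposited by the authors from the two-sided DESeq2 Wald test. Of 20659 rows, 4 hold STAR summary classes and were left out. Symbols and exon lengths came from GENCODE M21 (20618 genes). All 3 tables hold identical means, and the fold changes of the 9 genes close over the comparisons within 4.996e-15, which is why they were taken as a single fit to 9 libraries.

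Levels in DPP4+ cells were computed as 3 times the mean over the sum of the 3 relative levels, then multiplied by each fold change, and 95% intervals as the fold change ± 1.96 SE. Genes and lists were chosen with earlier results of these data known. All 9 genes are named. For each list and comparison the rule takes up to 3 called genes with the largest change and a mean of at least 100, or the 2 highest means where fewer than 2 pass, and the genes described are a part of these. Of the genes outside it, Il18, Il1r2, Il1rl2 and Il34 were named after their values were seen, and Crlf2, Il7r, the genes beside Il1rl1 and the cell type markers for their role or place, and the NF-kB response genes called in neither comparison against DPP4+ cells because they were not called. For each gene with a mean of at least 100, the 3 of nearest pattern are named. Promoter windows came from RefSeq (GRCm38.p6), with 8 of the genes matched and Tslp not analysed here. As alternatives, the adjusted p threshold was set to 0.01 and 0.1, p-values were adjusted without a filter and with means of 10 or 100 as the limit, a log2 change of 1 or more was required or used as the null of the Wald test, fold changes were re-centred, and levels were taken from another pair of tables. Scripts ran in Python 3.11.15 with numpy 2.4.6, pandas 2.3.3, scipy 1.17.1 and matplotlib 3.10.9, and were tested on simulated data.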

Additional observations from a re-analysis of the deposited data

How the results depend on the processing

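The counts of called genes depended most on the size of change required. With the Wald test set against a log2 fold change of 1, 1 of the 9 genes remained called as higher in ICAM1+ than in DPP4+ cells (Lifr), 0 as lower, 1 as higher in CD142+ than in DPP4+ cells (Il6), 0 as lower, and 0 as lower in ICAM1+ than in CD142+ cells. With an absolute log2 fold change of at least 1 required, 1 gene (Il33) was lower in ICAM1+ than in CD142+ cells. The same requirement left 5 genes higher and 1 lower in CD142+ than in DPP4+ cells, as Il6st lost its call. Counts in ICAM1+ against DPP4+ cells stayed at 3 and 1. At an adjusted p below 0.1, 1 gene (Lifr, 0.49) was higher in ICAM1+ than in CD142+ cells. At 0.01, Il6st lost its call in that comparison. Adjusting p-values with no filter, or above a mean of 10, changed 0 of 27 calls, and above a mean of 100, which leaves out Tslp, 0 of 24. The median gene with a mean of at least 100 lay at -0.07, -0.05 and -0.02, and re-centring on it changed 2 of 27 calls, both of Il6st (0.28 in ICAM1+ against DPP4+ cells, now called, and -0.28 in ICAM1+ against CD142+ cells, no longer called). No value changed sign, and the order of levels held for 9 of 9 genes when re-centred and with levels from the tables that hold ICAM1+ cells. No paired analysis was possible because the deposited tables hold no values per library, and for the same reason no library could be left out in turn. Tslp, at a mean of 28.4 normalised counts, and Lif, with an SE of 0.46, were limited most by precision.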
